A study of Mus musculus with 6 samples.

Results

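The 8 mouse Smad genes were followed through RNA sequencing of the apical dental mesenchyme of the first lower molar at postnatal day 7.5. They were taken by symbol from the deposited table of 25899 genes: the receptor-activated Smads Smad1, Smad5 and Smad9 (BMP branch) and Smad2 and Smad3 (TGF-β and activin branch), the common partner Smad4, and the inhibitory Smads Smad6 and Smad7. All 8 were in the table, had reads in every library, and passed the filter on low values that left 14444 genes for testing. The study compared 3 mutants of genotype Gli1-CreER;Bmpr1afl/fl with 3 littermate controls of genotype Bmpr1afl/fl, on a mixed C57Bl6/129S6/SvEvTac background. Both groups thus carry the floxed (loxP-flanked) receptor gene, and only the mutants carry the CreER recombinase, which is made in Gli1-expressing cells and acts only after tamoxifen. The tamoxifen schedule, and whether controls received it, are not given in the sources used here. Cells outside the Gli1 lineage keep an intact receptor gene in the mutants. Controls 1 and 2 were littermates of mutants 1 and 2 (litter 1), and control 3 of mutant 3 (litter 2). The labels do not say that libraries of a genotype came from separate animals, so p-values measure the spread between these libraries.

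Smads carry signals from receptors of the TGF-β superfamily to the nucleus. A BMP bound to type I and type II receptors, Bmpr1a among the type I, leads to phosphorylation of Smad1, Smad5 and Smad9, while TGF-β and activin receptors act on Smad2 and Smad3. Phosphorylated receptor Smads join Smad4 and bind DNA with other factors, and Smad6 and Smad7 are induced by the same signals and block them at the receptor. In the tooth, BMP signaling through Smad4 is known to be needed for root formation and for the differentiation of odontoblasts, the dentin-forming cells.

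The libraries held 15916045 to 20609420 reads on genes, and the level of 3 reads was 0.0987 to 0.126 RPM (reads of a gene per 1000000 reads of the library, a total inferred from the step between the deposited values). The fewest reads on a Smad in any library were 313, so depth did not limit these genes. Any 2 libraries differed beyond sampling noise, with a chi-square per degree of freedom of 22.3 or more. Bmpr1a, the targeted gene, had a mean of 136 ± 14.4 RPM over the controls and 113 ± 6.51 RPM over the mutants (± gives the SD of 3 libraries unless stated otherwise), with no overlap and a log2 change of -0.27 (SE 0.14, unadjusted p = 0.091 by limma). Reads from exons outside the floxed part and from cells that kept the gene count towards this value, so it is a partial check of the labels. Gli1, the driver's locus, was at a mean of 43.0 ± 18.04 RPM in controls against 25.0 ± 4.69 RPM in mutants (log2 change -0.70, SE 0.29, unadjusted p = 0.046 by limma, adjusted 1.00), again without overlap. Without control 3 its change was -0.38 (unadjusted p = 0.099 by limma), and its unadjusted p was under 0.05 in 6 of 16 alternatives.

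The libraries differed in other tissue markers, unevenly within each genotype. All 10 listed dental mesenchyme genes were expressed, and their sum ran from 2387 to 3769 RPM. The sum of 11 enamel epithelium genes, cells that a mesenchymal dissection is meant to leave behind, was 5465, 2369 and 39625 RPM in controls 1 to 3 and 49322, 5738 and 21848 RPM in mutants 1 to 3. Control 3, mutant 1 and mutant 3 thus stood apart as rich in enamel transcripts. The other marker sums ran over 365 to 581 RPM for endothelial, 507 to 1664 for osteoblast, 479 to 8214 for odontoblast, 308 to 604 for macrophage and osteoclast, 177 to 1984 for erythroid and 16.7 to 22.1 for glial genes. None of the marker lists had a gene with an adjusted p under 0.05, and at an unadjusted p under 0.05 there was 1 dental mesenchyme gene, 2 osteoblast and 2 glial genes, all lower in mutants, against 1.05% of all genes. In bulk tissue, fewer cells of a type and less RNA per cell cannot be told apart.

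**Figure D1:**
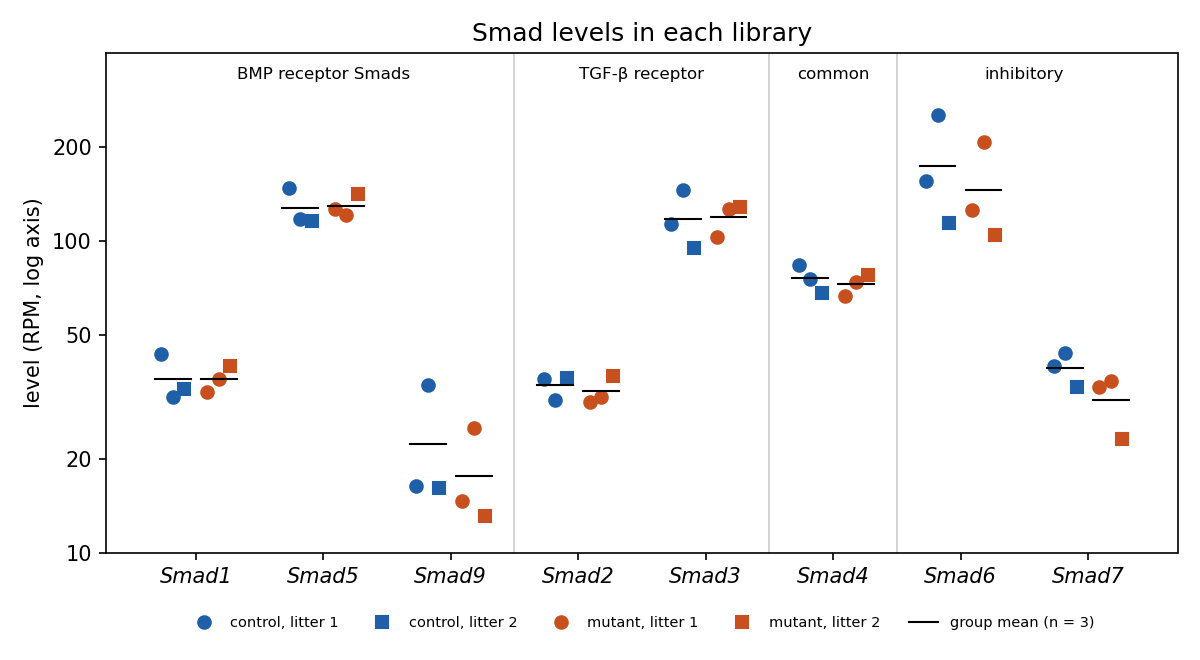
Level of each Smad in each library (RPM, log axis), grouped by role; blue points are controls, orange points mutants, circles litter 1, squares litter 2, and black bars the mean of 3 libraries. The highest value is that of Smad6 in control 2, 254 RPM, and the lowest that of Smad9 in mutant 3, 13.1 RPM. In control 2 Smad9 lies above Smad1 and Smad2. The groups overlap for all 8 genes.

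The family was led by an inhibitor. To compare genes, RPM was divided by the length of the union of a gene's exons in the GENCODE annotation of GRCm38, the mouse build that the submitters' processing notes call mm10. On this scale of RPM per kb, Smad6 stood at 49.9 ± 18.5 over the 6 libraries (SD, n = 6), 2.33 times the mean of Smad3 and above it in 6 of 6 libraries. Smad3 (21.4 ± 3.38), Smad4 (19.99 ± 1.70) and Smad5 (17.3 ± 1.80) came next with overlapping ranges. All 3 were above Smad7 (7.74 ± 1.54), Smad1 (5.77 ± 0.727), Smad2 (3.84 ± 0.342) and Smad9 (3.72 ± 1.53). Ranges separated Smad6 from Smad3, Smad5 from Smad7, and Smad1 from Smad2, while the other neighbours in this order overlapped. The order of Smad7 and Smad1 depends on the length used: over the longest principal transcript Smad1 was at 11.7 and Smad7 at 8.18 RPM per kb. Over that transcript Smad5 was at 19.5 RPM per kb, so its distance to Smad1 was also smaller than over the union of exons.

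Summed by role on the same scale, the inhibitory Smads made up 42.7%, 53.4% and 40.4% of the family's level in controls 1 to 3 and 41.8%, 49.9% and 33.0% in mutants 1 to 3. The BMP receptor Smads made up 16.4% to 24.4%, the TGF-β receptor Smads 17.9% to 24.1% and Smad4 12.2% to 18.4%. The inhibitory share was highest in control 2 and mutant 2 and lowest in mutant 3, and the genotypes overlapped.

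**Figure D2:**
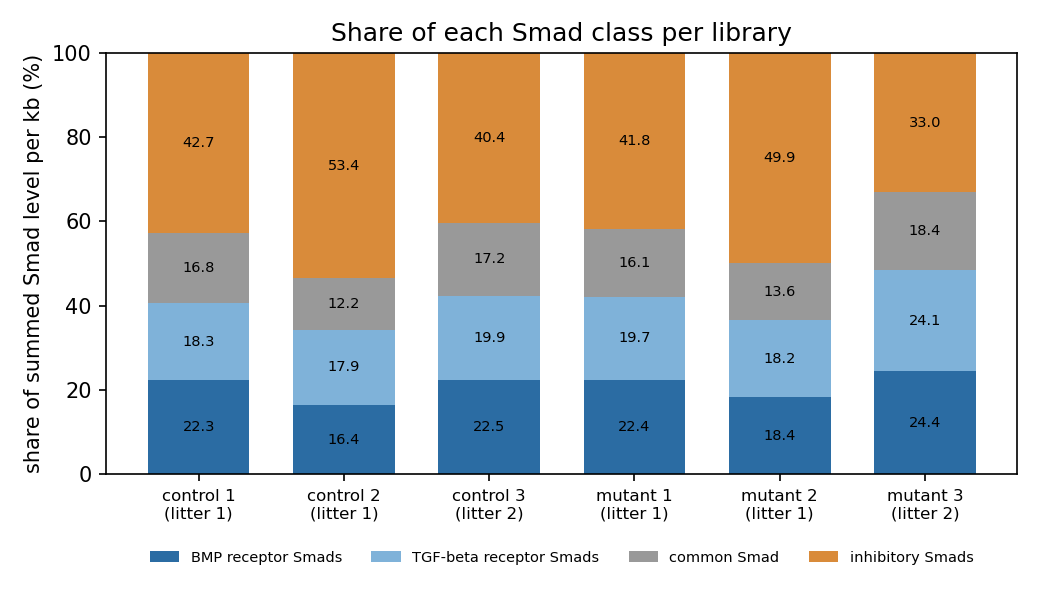
Share of the summed Smad level per kb of exon taken by each role in each library (bars add up to 100%, numbers are the shares). The inhibitory share runs from 33.0% in mutant 3 to 53.4% in control 2, and libraries of both genotypes lie on either side of the middle.

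No Smad differed between genotypes beyond the spread of the libraries. By limma the adjusted p (Benjamini-Hochberg) was 1.00 for each, so 0 of 8 passed 0.05, as did 0% of all genes tested. At an unadjusted p under 0.05 there were 0 of 8, against 1.05% of all genes. Groups did not overlap for 0 of 8, against 1.67% of all genes for lower and 0.976% for higher values in mutants. The mean log2 change was below 0 for 5 of 8, against 54.4% of all genes, and the median change was -0.06 over the Smads and -0.01 over all genes. A change is the mean log2(RPM + 1) of mutants less that of controls.

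**Figure D3:**
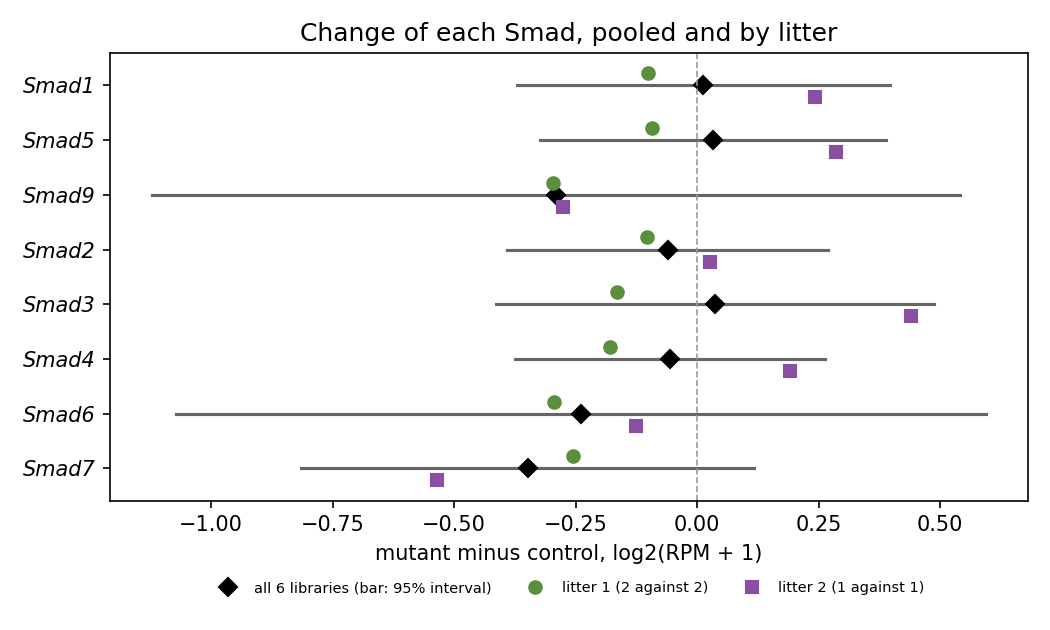
Difference of mean log2(RPM + 1) between mutants and controls for each Smad: black diamonds use all 6 libraries with their 95% interval from limma, green circles litter 1 (2 against 2) and purple squares litter 2 (1 against 1). Every interval crosses 0; Smad6, Smad7 and Smad9 lie below 0 in both litters, and the 5 other genes are below 0 in litter 1 and above 0 in litter 2.

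The 3 BMP receptor Smads, the direct substrates of the targeted receptor, were taken first. Smad1 (chromosome 8, 79338395 to 79399518, minus strand, GRCm38) was at 43.2, 31.5 and 33.4 RPM in controls 1 to 3 and at 32.7, 36.1 and 39.7 RPM in mutants 1 to 3. Control 1 was highest and the groups overlapped throughout. The mutant level was 1.01 times that of controls (95% interval 0.773 to 1.32). Smad5 (chromosome 13, 56703010 to 56742377, plus strand), the most abundant of the 3, was at 148, 118 and 116 RPM in the controls, against 126, 121 and 141 RPM in the mutants. Again control 1 was highest, followed by mutant 3. Its mutant level was 1.02 times that of controls (0.799 to 1.31).

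Smad9 (chromosome 3, 54755582 to 54801257, plus strand), known earlier as Smad8, varied far more. Controls 1 to 3 were at 16.4, 34.4 and 16.1 RPM, and mutants 1 to 3 at 14.6, 25.2 and 13.1 RPM. Control 2 and mutant 2, both of litter 1, stood above the other 4 libraries. The mean was 22.3 ± 10.5 RPM in controls and 17.6 ± 6.55 RPM in mutants, 0.818 times (0.459 to 1.46), with a log2 change of -0.29 (SE 0.35, unadjusted p = 0.438 by limma). Without control 2 the change was 0.056, so its direction rests on that library. Smad9 took 6.76% to 18.8% of the reads on the 3 BMP receptor Smads, with the lowest share in mutant 3 and the highest in control 2.

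Of the TGF-β receptor Smads, Smad2 (chromosome 18) was the steadiest of the receptor Smads. Controls 1 to 3 were at 36.0, 31.0 and 36.3 RPM, and mutants 1 to 3 at 30.5, 31.5 and 37.0 RPM, and the mutant level was 0.959 times that of controls (0.762 to 1.21). In each genotype the litter 2 library was the highest. Smad3 (chromosome 9, 63646767 to 63757994, minus strand) was at 113, 146 and 94.7 RPM in the controls, against 103, 127 and 129 RPM in the mutants. Control 3 was lowest and control 2 highest, so the controls enclosed the mutants, and the ratio was 1.03 (0.750 to 1.40).

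Smad4 (chromosome 18), the partner of both branches, was at 83.6, 75.5 and 68.1 RPM in the controls, against 66.6, 73.6 and 77.9 RPM in the mutants. The ranges overlapped, and the ratio was 0.962 (0.772 to 1.20). The intervals of Smad2 and Smad4 were the narrowest of the family.

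Smad6 (chromosome 9, 63953076 to 64022059, minus strand) binds BMP type I receptors and competes for Smad1, and it is a transcriptional target of BMP signaling. Controls 1 to 3 were at 155, 254 and 114 RPM, and mutants 1 to 3 at 126, 208 and 104 RPM. As for Smad9, control 2 and mutant 2 were highest and the genotypes overlapped. The mean was 174 ± 71.8 RPM in controls and 146 ± 54.9 RPM in mutants, 0.847 times (0.476 to 1.51), a log2 change of -0.24 (SE 0.35, unadjusted p = 0.521 by limma). Without control 2 the change was 0.070, and without mutant 2 it was -0.52.

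Smad7 (chromosome 18) blocks receptors of both branches and recruits the Smurf ubiquitin ligases to them. Controls 1 to 3 were at 39.7, 43.8 and 33.9 RPM, and mutants 1 to 3 at 34.1, 35.4 and 23.1 RPM. Mutant 3 was the lowest, and mutants 1 and 2 lay below controls 1 and 2 but just above control 3. The mean was 39.1 ± 4.97 RPM in controls and 30.9 ± 6.78 RPM in mutants, 0.785 times (0.568 to 1.08). The log2 change was -0.35 (SE 0.20, unadjusted p = 0.121 by limma), the smallest p of the 8.

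Within litter 1 the Smad7 change was -0.26, with both mutants below both controls, and in litter 2 it was -0.54. With litter as a term in the fit the unadjusted p for Smad7 was 0.0272 by limma and the adjusted p 1.00 (Benjamini-Hochberg). In that fit 1 of 8 Smads was under an unadjusted p of 0.05, against 2.02% of all genes. Mutant 3, the lowest in Smad7, was also low in tooth-forming and bone-forming cell markers, with odontoblast sums of 1764 RPM in control 3 and 479 RPM in mutant 3 and osteoblast sums of 1577 and 507 RPM. In litter 1 the odontoblast sums were 5063 and 6060 RPM in controls and 8214 and 5742 RPM in mutants, and the osteoblast sums 927 and 1664 against 1524 and 1333 RPM. The part of these cells in the Smad7 level was not tested. With each library left out in turn the Smad7 change stayed between -0.46 and -0.16.

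Smad6 changed by -0.30 in litter 1 and -0.13 in litter 2, and Smad9 by -0.30 and -0.28. With Smad7 these made 3 of 8 Smads below 0 in both litters, against 18.1% of all genes. The other 5 were below 0 in litter 1, from -0.18 for Smad4 to -0.09 for Smad5, and above 0 in litter 2, from 0.03 for Smad2 to 0.44 for Smad3. Over all genes tested, 67.7% were below 0 in litter 1 and 67.9% above 0 in litter 2. Litter 2 has a single library per genotype and allows no test. The term for a litter-dependent genotype effect had unadjusted p-values (limma) from 0.129 (Smad3) to 0.977 (Smad9) for the 8 genes, where 5.06% of all genes were under 0.05.

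The balance of inhibitors and BMP receptor Smads was given as the reads on Smad6 and Smad7 over those on Smad1, Smad5 and Smad9. This ratio was 0.939, 1.62 and 0.894 in controls 1 to 3 and 0.920, 1.34 and 0.656 in mutants 1 to 3. Control 2 and mutant 2 were high and the genotypes overlapped. The means were 1.15 ± 0.407 and 0.970 ± 0.343, a difference of -0.18 (mutants less controls), which is smaller than either SD. Without control 2 the difference reversed to 0.054, and without mutant 2 it was -0.36. Smad6 over Smad7 ran from 3.35 to 5.87 and was highest in the same 2 libraries.

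The 8 genes differed in how much they varied from library to library. The coefficient of variation over the 6 libraries was 8.49% for Smad4, 8.89% for Smad2, 10.4% for Smad5, 12.6% for Smad1, 15.8% for Smad3 and 19.9% for Smad7. For Smad6 it was 37.0% and for Smad9 41.2%, against a median of 17.1% over all genes tested and 1.48% and 4.204% from counting alone. Smad6 varied more than 84.7% and Smad9 more than 87.6% of tested genes, while Smad4 varied more than 10.1%.

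Smad6 and Smad9 varied together. Each spanned a wide range, 2.44-fold for Smad6 and 2.63-fold for Smad9, but the ratio of Smad9 to Smad6 reads stayed between 0.106 and 0.142. Over the 6 libraries Pearson's r of their log2 values was 0.96 (two-sided exact permutation p = 0.00417) and Spearman's rho 0.94 (exact permutation p = 0.0167). Over the 28 pairs of Smads the Benjamini-Hochberg adjusted values were 0.117 and 0.233, so the relation does not pass adjustment. Without the 2 libraries farthest from the median r was 0.70. In litter 1 both genes had the order control 2, mutant 2, control 1, mutant 1, and in litter 2 both were higher in control 3 than in mutant 3. Neither litter holds enough libraries for a value of its own.

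The next pair was Smad1 and Smad5, close paralogs, with r = 0.90 (exact permutation p = 0.0194, adjusted 0.272) and rho = 0.71 (exact permutation p = 0.136, adjusted 0.700). Without the 2 farthest libraries, r was 0.10, so that relation rests on them. Smad9, the other BMP receptor Smad, had r = -0.46 with Smad1 and -0.55 with Smad5 (exact permutation p = 0.368 and 0.232, adjusted 0.606 and 0.590). Smad6 and Smad7 had r = 0.76 (exact permutation p = 0.0611, adjusted 0.490), or 0.40 without the 2 libraries farthest from the median of Smad7 and 0.85 without those farthest for Smad6, and rho = 0.94 (exact permutation p = 0.0167, adjusted 0.233).

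**Figure D4:**
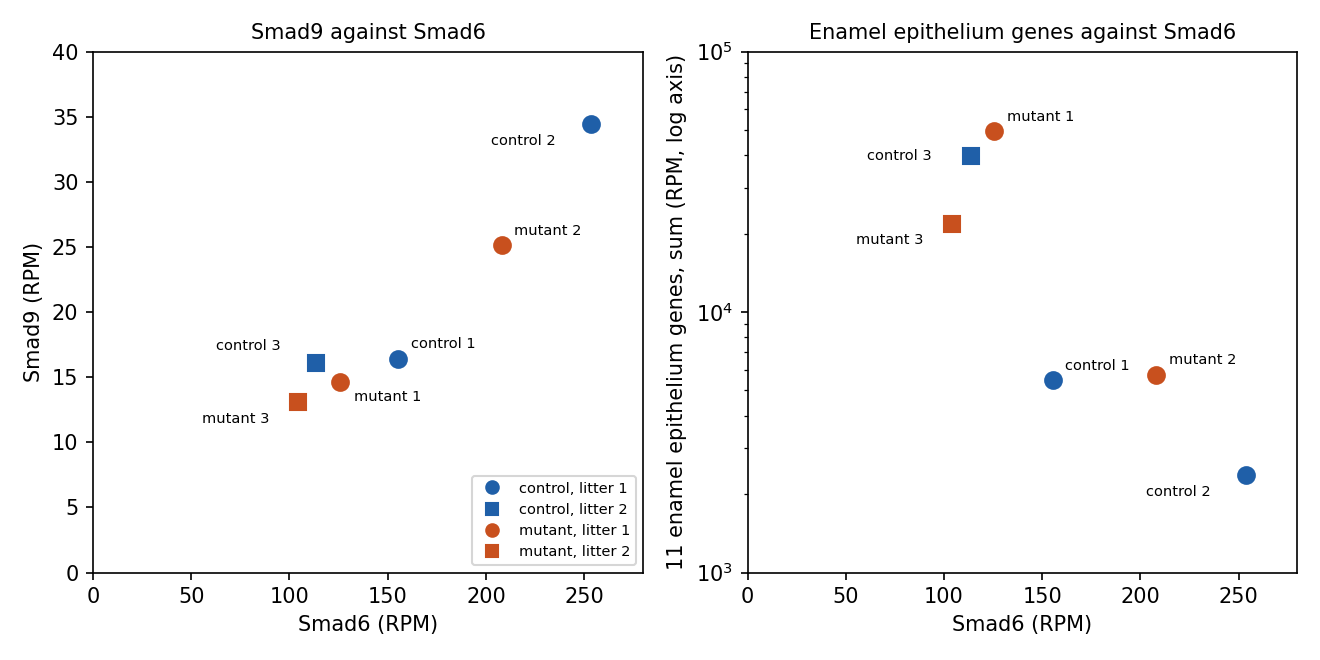
Left, Smad9 against Smad6 in each library (RPM); right, the sum of 11 enamel epithelium genes (RPM, log axis) against Smad6; blue are controls, orange mutants, circles litter 1, squares litter 2. Control 2 and mutant 2 lead for both Smads, and the 3 libraries with 21848 RPM or more of enamel transcripts are the 3 lowest in Smad6.

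Sums of 4 of the 8 marker lists set controls 1 and 2 and mutant 2 apart from the other libraries, as Smad6 did. The odontoblast, osteoblast, erythroid and glial sums did not. The 3 libraries poor in enamel transcripts (controls 1 and 2, mutant 2) were the 3 highest in Smad6, at 155 to 254 RPM, and in Smad9, at 16.4 to 34.4 RPM. The 3 rich in them were at 104 to 126 RPM of Smad6 and 13.1 to 16.1 RPM of Smad9. For Smad9 this divide fell between control 1 at 16.4 RPM (499 reads) and control 3 at 16.1 RPM (456 reads). Only control 2 and mutant 2 stood clearly above the others in Smad9. The macrophage and osteoclast sum split the libraries the same way, at 441 to 604 RPM in those poor in enamel transcripts and 308 to 341 RPM in those rich in them. So did the dental mesenchyme sum, at 3147 to 3769 against 2387 to 2784 RPM. Vim made up most of that sum, with 1926, 2487 and 2447 RPM in controls 1 and 2 and mutant 2. In control 3 and mutants 1 and 3 Vim was at 1766, 1557 and 1525 RPM. Msx1 also split this way, and the other listed dental mesenchyme genes did not. The endothelial sum, from a tissue where Smad6 is known to be expressed, also split the libraries this way. It was 581, 518 and 542 RPM in controls 1 and 2 and mutant 2. In control 3 and mutants 1 and 3 it was 430, 365 and 481 RPM. This sum was highest in control 1, whereas Smad6 and Smad9 were highest in control 2. The part of these tissues in the Smad6 and Smad9 levels was not tested.

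The promoters of Smad6 and Smad9 were read because their levels moved together. Smad7 shared the order of libraries within each genotype, but no promoter window was present for it. RefSeq windows of GRCm38.p6, 250 bases before to 50 after a transcript start, were present for 5 members in 7 windows (Smad1, Smad3, Smad5, Smad6 and Smad9, not Smad2, Smad4 or Smad7). They were searched on both strands for GTCTAGAC, the palindromic Smad box bound by Smad3 and Smad4, and for GGCGCC, a GC-rich element bound by BMP receptor Smads; both are palindromes, and no match of one overlapped a match of the other in a Smad window. GTCTAGAC occurred in 0.213% of all 32851 windows and, among the Smads, in that of Smad6, where it begins 4 bases before the transcript start and runs across it. GGCGCC occurred in 11.9% of windows and in those of Smad9, 51 bases before the start, and Smad5, where 2 overlapping windows hold the same single site. Neither was found in the windows of Smad1 and Smad3. The stretches that hold the matches are given 5′ to 3′ in the direction of transcription, with the match in capitals: Smad6 at chr9:64022056-64022159, minus strand, and Smad9 at chr3:54755519-54755548, plus strand. A match of letters is a description and does not show binding.
Smad6: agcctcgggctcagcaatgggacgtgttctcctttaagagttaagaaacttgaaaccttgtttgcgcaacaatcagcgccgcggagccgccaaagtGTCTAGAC
Smad9: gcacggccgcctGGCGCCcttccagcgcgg

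Genes around the Smads in the pathway were counted from lists of known pathway genes, and in none of the 5 lists did a gene reach an adjusted or unadjusted p under 0.05 (limma). Of 12 receptors for BMP, activin and TGF-β, 11 were tested, 3 had a log2 change below 0, and the median change was 0.05. Besides Bmpr1a, the smallest p was that of Tgfbr3, the co-receptor betaglycan, at a mean of 18.4 ± 4.65 RPM in controls against 23.8 ± 2.23 RPM in mutants (log2 change 0.38, SE 0.20, unadjusted p = 0.103 by limma). Tgfbr2, the TGF-β type II receptor, was higher in mutants without overlap, at 160 ± 16.2 and 181 ± 12.7 RPM (unadjusted p = 0.253 by limma). Bmpr1b, the other BMP type I receptor most like Bmpr1a, did not pass the filter, with at most 0.293 RPM in a library.

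The 18 ubiquitin ligases, deubiquitinases and phosphatases that act on Smads were all tested, 12 with a log2 change below 0 and a median change of -0.03. Wwp1, a ligase that works with Smad7, was at 49.4 ± 4.66 and 41.6 ± 4.82 RPM (unadjusted p = 0.132 by limma). Ctdspl, of the small phosphatases that dephosphorylate Smads, was at 31.0 ± 3.90 and 29.1 ± 5.30 RPM. Of 16 anchors, coactivators and corepressors 15 were tested, 10 with a log2 change below 0 and a median of -0.02. Lemd3, an inner nuclear membrane protein that antagonizes receptor Smads, was at 37.7 ± 2.02 and 32.5 ± 2.56 RPM without overlap (unadjusted p = 0.144 by limma). Tgif2, a corepressor, was at 30.9 ± 5.31 and 36.6 ± 3.59 RPM. Foxh1, a partner of Smad2 in the early embryo, had no reads in any library.

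All 12 listed target genes of BMP Smads were tested. Their median change was -0.31 and 10 of 12 had a log2 change below 0, where 54.4% of all genes did. Id4 and Msx1 were above 0. Litter 2, with 1 library per genotype, had the lower change for Id1, Id2, Id3, Bambi, Msx2 and Hey1. Examples are Id1 at -0.16 in litter 1 and -0.89 in litter 2, and Id3 at -0.04 and -0.92. The other listed targets had the higher change in litter 2. In the marker lists the log2 change was below 0 for 7 of 7 osteoblast genes (median change -0.50), 5 of 5 odontoblast genes (-0.71), 8 of 10 dental mesenchyme genes (-0.23), 7 of 9 endothelial genes (-0.15), 3 of 4 erythroid genes (-0.06), 2 of 4 glial genes (-0.17), 2 of 7 macrophage and osteoclast genes (0.15) and 1 of 11 enamel epithelium genes (1.21), none with an adjusted p under 0.05, and the dental mesenchyme list shares 2 genes with the targets. A log2 change can differ in sign from that of the mean RPM: for Dspp, an odontoblast matrix gene, control libraries averaged 3231 RPM and mutant libraries 3876 RPM, while the log2 change was 0.35 in litter 1 and -2.84 in litter 2. The part of these cells in the change of the targets was not tested. Bambi, a decoy receptor, was at 205, 282 and 458 RPM in the controls, against 194, 219 and 230 RPM in the mutants, with the litter 2 control far above the rest (log2 change -0.48, SE 0.29, unadjusted p = 0.14 by limma). Grem1, a secreted BMP antagonist, was near the filter at 1.95 ± 0.711 and 1.01 ± 0.787 RPM, with an unadjusted p of 0.113 by limma, or 0.0296 with litter as a term. It was the 1 gene of 12 under 0.05 in that fit, against 2.02% of all genes. The 8 targets of TGF-β Smads had a median change of 0.06, with 2 of 8 below 0. Ctgf, a matricellular protein, was at 66.7 ± 24.3 and 93.4 ± 38.1 RPM, and Skil, a corepressor induced by TGF-β, at 46.2 ± 7.54 and 52.3 ± 23.7 RPM.

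The genes whose log2 pattern over the 6 libraries was most like each Smad were taken, up to 2 per Smad, among the 9978 genes that averaged 10 RPM or more. With so few libraries many genes reach a high r, and the choice by r leaves no test. They were Tbcel (r = 0.996) and Tor1aip1 (0.995) for Smad6, Ldlrad3 (0.989) for Smad9, and Olfml2b (0.991) and Samd4 (0.983) for Smad7. Olfml2b was at 80.5, 91.0 and 64.6 RPM in the controls, against 57.8, 61.2 and 32.5 RPM in the mutants, the same order of libraries within each genotype as Smad7. For Smad1 they were Pold1 (0.993) and Skp2 (0.990), for Smad5 Lztfl1 (0.992) and Ythdf3 (0.988), for Smad2 Sema6a (0.996) and Prkar2b (0.995), for Smad3 Dctn4 (0.989) and Lbp (0.988), and for Smad4 Creb1 (0.993) and Ehmt1 (0.993). No Smad was among the nearest 2 of another. Smad6 ranked 20 among the genes most like Smad9, and Smad9 ranked 111 among those most like Smad6.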

How the data were processed

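The authors deposited a table of 25899 genes by 6 libraries under the title normalized RPKM, and its numbers are log2 values. Raised as powers of 2, 100% of the values of 1 to 100 reads lay within 0.02 reads of a whole multiple of 1 step per library, the same for long and short genes, so length is not divided out. They were treated as log2 RPM, with the column minimum (0.9 of 1 read) as no reads. TopHat2 and mm10 are named in the submitters' processing notes, and the counting program is not given in the sources used here. Libraries came from polyA+ RNA and were sequenced by Illumina, per the labels' protocols.

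The planned test assumed RPKM and was applied to RPM. The 14444 genes averaging 1 RPM or more were fitted on log2(RPM + 1) by limma (version 3.58.1, R 4.3.3; eBayes with trend, two-sided, Benjamini-Hochberg), and the script was tested on simulated data. The pseudocount understates the change of low genes. Litter and replicate number were alternatives, with other pseudocounts, filters and scalings, limma voom on the recovered reads (0 genes with an adjusted p under 0.05) and leaving out each library. The members and lists were chosen with earlier results of these data known. Genes were named by rule: the 8 Smads, Bmpr1a, Gli1, genes of the pathway lists with an unadjusted p under 0.05 or else the 2 smallest p-values per list, and the 2 genes most like each Smad (1 of them is not reported here). Bmpr1b, Foxh1, Tgfbr2, Dspp and a few values set beside these were added after the values were seen. Exon lengths came from GENCODE vM21. The only other annotated gene whose exons overlap those of a Smad was Gm27301 in Smad5, over 100 bases.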

Additional observations from a re-analysis of the deposited data

Results flagged for a closer look

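Smad4 differed in direction between litters. Its change was -0.18 in litter 1, where both mutants lay below both controls, and 0.19 in litter 2, where the single mutant lay above the single control. The difference of 0.37 had an unadjusted p of 0.208 for the litter-by-genotype term in limma. By mean change 5 of 8 Smads were below 0 in litter 1 and above 0 in litter 2, and the difference was larger for Smad3 (0.61) and Smad5 (0.38) than for Smad4. Smad4 alone of the 8 had both litter 1 mutants below both controls and the litter 2 mutant above its control. Libraries split without overlap within litter 1, and the opposite way in litter 2, for 18.2% of all genes tested (2622 of 14444).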

How the results depend on the processing

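The number of genes with an adjusted p under 0.05 (limma, Benjamini-Hochberg), 0 in the reported fit, was also 0 for litter 1 alone and for the other alternatives on all 6 libraries, and 0 to 1 when each library was left out (1 gene, Spp1, in the fit lacking control 1). Genes at an unadjusted p under 0.05 numbered 152 in the reported fit, 344 with no filter, 292 with a litter block, 316 for litter 1 by itself and 68 to 319 with a library left out. The column names number both genotypes 1 to 3, and deviations of same-numbered libraries correlated, across genes, at -0.03, 0.75 and 0.50, so the numbers were not taken as pairs. Libraries numbered 2 and 3 correlated best with their own number, and those numbered 1 did not. With the replicate block the count was 524 and the unadjusted p of Smad7 was 0.0401 (limma, adjusted p 1.00), and no Smad passed adjustment.

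None of the 8 Smads passed adjustment in any of the 16 alternatives, and 2 of them gave Smad7 an unadjusted p under 0.05. Smad2 and Smad7 kept their direction in 16 of 16, from -0.14 to -0.0085 and from -0.46 to -0.16. In litter 1 alone Smad1, Smad3 and Smad5 went from 0.01, 0.04 and 0.03 to -0.10, -0.17 and -0.093. With each library left out, ranges were -0.075 to 0.15 for Smad1, -0.11 to 0.20 for Smad3, -0.13 to 0.017 for Smad4, -0.030 to 0.15 for Smad5, -0.52 to 0.070 for Smad6 and -0.56 to 0.056 for Smad9. The last 2 reversed without control 2. The cause of these shifts was not tested. The inhibitor ratio difference, -0.18, ran from -0.36 to 0.054. Depth limits none of the Smads. The intervals rest on 3 libraries per genotype, and what sets their width was not tested.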
